A study of Homo sapiens with 6 samples.

Results

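The 39 genes described here encode enzymes and regulators of fatty acid and glycerolipid metabolism, and were taken by gene symbol from a list of pathway members. All 39 were found among the 17721 genes of the expression table. They fall into synthesis and elongation (8 genes), transcriptional regulators (2), desaturation (5), acyl-CoA activation (3), glycerolipid assembly (11), lipid droplet coating and lipolysis (4), and mitochondrial oxidation (6). The RNA came from MDA-MB-231BR, an established human breast cancer cell line that grows preferentially in brain and descends from MDA-MB-231. The cells carried a lentiviral short hairpin RNA (shRNA) against ACSS2 (3 libraries) or a lentiviral control shRNA (3 libraries). Both groups were grown as monocultures in serum-containing medium and had gone through antibiotic selection, and the labels describe the libraries of a group as biological replicates. The sample titles number the hairpins of each group 1 to 3, and a batch tag, Rep1 to Rep3, follows the same numbers in both groups. How many hairpin sequences were used, and whether any line was a clone, is not stated. A replicate number, and with it n = 3 and the block used below, may therefore stand for a repeat of the same hairpin or for another hairpin.

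ACSS2 is the nucleocytosolic acetyl-CoA synthetase, which makes acetyl-CoA from acetate. Cytosolic acetyl-CoA is carboxylated to malonyl-CoA and built into palmitate, which is activated to acyl-CoA and then elongated and desaturated. Acyl chains are esterified stepwise onto glycerol to give phospholipids and droplet-stored triacylglycerol, or they enter mitochondria through the carnitine shuttle for beta-oxidation. In brain metastases of breast cancer, lipid synthesis has drawn interest.

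Promoters are shown for 4 members whose RNA passed the test described below and that belong to different classes. SREBF1 is the regulator, ELOVL5 an elongase, LPIN1 a phosphatidate phosphatase and PLIN2 a droplet coat protein. Each window runs from 250 bases before to 50 bases after a transcription start, 5′ to 3′ on the gene's strand, and comes from RefSeq on GRCh38.p14. Capitals mark GC boxes (GGGCGG, either strand) in SREBF1 and LPIN1, CCAAT boxes (CCAAT, either strand) in ELOVL5, and an E-box (CACGTG) in PLIN2. Only 1 kind of motif is marked in each window. The ELOVL5 window also holds an E-box and the PLIN2 window GC boxes, which are left in lower case.
SREBF1 (chr17:17836937-17837236, minus strand): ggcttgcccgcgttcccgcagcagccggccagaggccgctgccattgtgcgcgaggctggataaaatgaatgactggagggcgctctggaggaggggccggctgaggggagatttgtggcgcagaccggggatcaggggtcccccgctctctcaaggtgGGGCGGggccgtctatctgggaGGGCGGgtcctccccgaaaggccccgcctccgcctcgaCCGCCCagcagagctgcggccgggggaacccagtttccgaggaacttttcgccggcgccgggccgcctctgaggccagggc
ELOVL5 (chr6:53348901-53349200, minus strand): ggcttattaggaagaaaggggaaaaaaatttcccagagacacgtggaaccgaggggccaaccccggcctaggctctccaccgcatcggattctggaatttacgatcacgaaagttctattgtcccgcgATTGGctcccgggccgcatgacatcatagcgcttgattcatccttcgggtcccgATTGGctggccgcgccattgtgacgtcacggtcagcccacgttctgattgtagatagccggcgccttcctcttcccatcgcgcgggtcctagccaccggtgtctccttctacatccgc
LPIN1 (chr2:11746382-11746681, plus strand): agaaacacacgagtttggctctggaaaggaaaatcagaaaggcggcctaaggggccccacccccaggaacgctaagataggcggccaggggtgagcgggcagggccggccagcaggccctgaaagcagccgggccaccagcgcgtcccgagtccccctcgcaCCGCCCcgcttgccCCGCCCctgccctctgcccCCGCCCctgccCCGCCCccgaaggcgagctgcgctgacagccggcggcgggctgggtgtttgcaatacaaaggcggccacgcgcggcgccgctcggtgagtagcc
PLIN2 (chr9:19127443-19127742, minus strand): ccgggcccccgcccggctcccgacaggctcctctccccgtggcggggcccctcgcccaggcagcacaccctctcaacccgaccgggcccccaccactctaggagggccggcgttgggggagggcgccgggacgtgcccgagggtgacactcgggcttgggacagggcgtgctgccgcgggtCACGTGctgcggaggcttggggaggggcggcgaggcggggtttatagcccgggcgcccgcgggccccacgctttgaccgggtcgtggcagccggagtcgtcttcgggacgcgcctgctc

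Windows were found for 34 members, 53 in all, since some genes have several starts. FASN, DGAT1, DGAT2, AGPAT5 and LPIN3 were not matched. A GC box stood in 66.0% of the member windows and in 45.0% of all 35116 windows. CCAAT was found in 39.6% of member windows and 34.6% of all, and CACGTG in 7.55% and 7.26%. The sterol regulatory element, searched as TCACNCCAC on both strands, occurred in 2 member windows (3.77%) and in 1.13% of all. These belong to 1 of the 2 ACSL1 windows with any motif match, where it starts 242 bases before the start site, and to PNPLA2, at 153 bases before. Their surroundings are shown because the SREBF proteins are named after this element, with the match in capitals and the coordinates of the printed bases. A match of letters is a description and says nothing of binding.
ACSL1 (chr4:184805762-184805803, minus strand): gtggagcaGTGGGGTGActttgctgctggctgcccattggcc
PNPLA2 (chr11:818736-818794, plus strand): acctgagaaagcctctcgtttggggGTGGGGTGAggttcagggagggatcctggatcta

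Library totals were between 15048275 and 18608124 expected counts. VIM, a marker of the mesenchymal MDA-MB-231 type, was abundant, while CDH1 had at most 2 counts in any library. CD44, of the same kind, averaged 339.5 ± 44.5 TPM in ACSS2 shRNA cells and 467 ± 21.05 TPM in control shRNA cells. It was lower with the block described below (log2 fold change -0.57 ± 0.12, edgeR adjusted p = 0.00598). From the same list KRT7 was higher (0.76 ± 0.18, edgeR adjusted p = 0.00992), with overlapping groups, while VIM, KRT8, KRT18 and MSN were not called. KRT7, KRT8, KRT18 and MSN differed by replicate number (edgeR adjusted p between 0.00072 and 0.0148 for that term). Of the luminal or epithelial genes low in that line, ESR1 had between 15 and 30 counts, PGR between 8 and 23 and EPCAM between 23 and 70. Of the hepatocyte list, ALB had at most 1 count in any library, and SERPINA1 was 2.25-fold higher with the block (edgeR adjusted p = 0.000667). Of the macrophage list, CD68 averaged 586.5 ± 209 TPM in ACSS2 shRNA cells and 618 ± 256 TPM in control shRNA cells, and PTPRC, CSF1R, AIF1 and TYROBP stayed near 0. Of 8 adipocyte markers, the defining genes ADIPOQ, LEP, LPL and CIDEA stayed near 0, and the summed level of the list was 11.7, 10.8 and 9.04 TPM in ACSS2 shRNA cells, against 6.56, 9.74 and 6.20 TPM in control shRNA cells, most of it CIDEC. Values are listed in the order of replicate numbers 1, 2 and 3 throughout. Comparisons of the groups use CPM, which are counts scaled to library size with TMM factors, and comparisons between genes use TPM, which also account for gene length.

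The targeted gene, ACSS2, had 11.1, 50.5 and 88.7 CPM in ACSS2 shRNA cells, against 76.25, 71.2 and 164 CPM in control shRNA cells. Each replicate number had less of it in ACSS2 shRNA cells, and the groups overlapped, because replicate 3 of the ACSS2 shRNA cells lay above replicates 1 and 2 of the control shRNA cells. Without a term for the replicate number, its log2 fold change was -1.05 ± 0.64 (SE, n = 3 each) and did not pass (edgeR adjusted p = 0.504). With the replicate number as a block it was -1.31 ± 0.30, or 2.48-fold lower (edgeR adjusted p = 0.00758). By replicate number the log2 differences were -2.75, -0.49 and -0.88, so the loss was deepest in number 1.

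Of the 38 members that passed the low-count filter, none was called at an adjusted p under 0.05 by edgeR without the block, where 0.0692% of the 13003 genes tested were called (0.0231% higher and 0.0461% lower). An unadjusted p under 0.05 was reached by 8 of the 38 members, and by 1820 of the 13003 genes tested. LPIN1 came nearest, and was the one member called by DESeq2 without the block, which called 4.06% of the genes it tested. With the block, 14 of the 38 members (36.8%) were called, 10 higher and 4 lower in ACSS2 shRNA cells, against 25.1% of all genes tested (12.7% higher and 12.4% lower). The median log2 fold change of the members was 0.19 without and 0.22 with the block, and that of all genes tested was 0.02 in both. The groups did not overlap for 13 members, 9 with ACSS2 shRNA above and 4 below, against 20.3% of all genes (10.7% above and 9.63% below). All 3 replicate numbers went the same way for 24 members, 17 higher and 7 lower, against 57.8% of all genes (30.6% higher and 27.3% lower). The 14 had edgeR adjusted p between 0.118 and 0.528 without the block. Below, "rose" and "fell" refer to the fit with the block. In RNA from whole cultures, fewer cells of a type and less RNA per cell cannot be told apart.

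**Figure D1:**
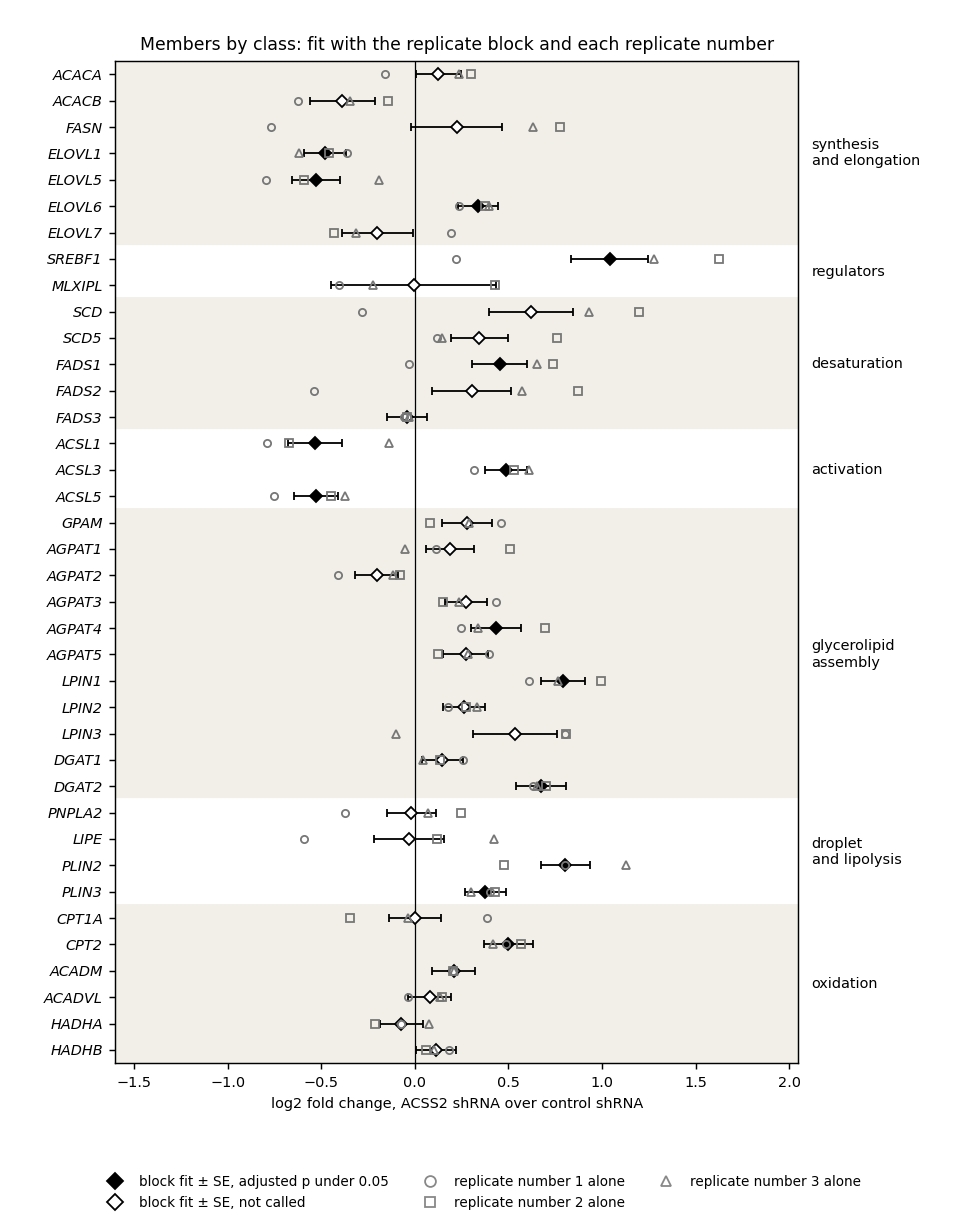
Log2 fold change of ACSS2 shRNA over control shRNA (x axis) for each tested member (y axis, by class). Diamonds give the estimate with the replicate block and its standard error, filled where the adjusted p was under 0.05, and open symbols give each replicate number alone. LPIN1, PLIN2 and DGAT2 lie above 0 in all 3 numbers, whereas FASN, SCD and FADS2 lie below 0 in number 1 and above 0 in numbers 2 and 3.

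By level, the set was led by 3 genes of synthesis and desaturation. FASN, which makes palmitate, averaged 478.5 ± 139 TPM in ACSS2 shRNA cells and 384.5 ± 121 TPM in control shRNA cells (SD, n = 3 each). FADS2, which starts the desaturation of polyunsaturated fatty acids, averaged 419 ± 36.75 TPM in ACSS2 shRNA cells and 348 ± 197 TPM in control shRNA cells. SCD, which makes oleate and palmitoleate, averaged 527 ± 108 TPM in ACSS2 shRNA cells and 337 ± 145 TPM in control shRNA cells. These 3 neighbours do not differ from one another beyond their spread in control shRNA cells. Together they held 33.5%, 37.0% and 41.1% of the summed TPM of all members in ACSS2 shRNA cells, against 41.9%, 25.7% and 31.8% in control shRNA cells. At the other end, ELOVL4, the elongase of the longest chains, had 0 counts in all 6 libraries, which allows up to 3 counts per library, or between 0.167 and 0.194 CPM.

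Among the genes of synthesis and elongation, the enzymes that build palmitate did not pass, while 3 elongases did. ACACA, the cytosolic acetyl-CoA carboxylase, had 130.1, 117 and 142 CPM in ACSS2 shRNA cells, against 145, 94.8 and 120.3 CPM in control shRNA cells. FASN had 1496, 2091 and 2993 CPM in ACSS2 shRNA cells, against 2552, 1219 and 1928 CPM in control shRNA cells. FASN was lower in ACSS2 shRNA cells in number 1 and higher in numbers 2 and 3, and in both genes the groups overlapped. The log2 fold change with the block was 0.13 ± 0.12 for ACACA (edgeR adjusted p = 0.475) and 0.22 ± 0.24 for FASN (edgeR adjusted p = 0.527). ACACB, the carboxylase at the mitochondrial surface whose product restrains fatty acid import, had a log2 fold change of -0.39 ± 0.17 (edgeR adjusted p = 0.118).

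ELOVL5, which elongates polyunsaturated fatty acids, had 57.45, 58.45 and 75.1 CPM in ACSS2 shRNA cells, against 99.8, 88.3 and 85.8 CPM in control shRNA cells. ELOVL1, which elongates saturated and monounsaturated very-long-chain fatty acids, had 182, 149 and 144 CPM in ACSS2 shRNA cells, against 234, 204.5 and 221 CPM in control shRNA cells. In both, every ACSS2 shRNA library lay below every control shRNA library. ELOVL5 fell by 0.53 ± 0.13 on the log2 scale (edgeR adjusted p = 0.0103) and ELOVL1 by 0.48 ± 0.11 (edgeR adjusted p = 0.00896). ELOVL1 lost its call without replicate number 2 (log2 fold change -0.53, edgeR adjusted p = 0.051) and without number 3 (-0.41, 0.0581). ELOVL6, which elongates palmitate to stearate, went the other way. It had 84.0, 101 and 82.8 CPM in ACSS2 shRNA cells, against 71.2, 77.6 and 63.0 CPM in control shRNA cells, with every ACSS2 shRNA library above. Its log2 fold change was 0.34 ± 0.11 (edgeR adjusted p = 0.0377), and it was 0.28 without number 2 (adjusted p = 0.301) and 0.31 without number 3 (0.15). ELOVL7, another elongase of saturated chains, stood at -0.20 ± 0.19 (edgeR adjusted p = 0.466).

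Of the 2 regulators, SREBF1 rose. It encodes SREBP-1, the transcription factor that drives fatty acid synthesis genes. SREBF1 had 371, 279 and 328 CPM in ACSS2 shRNA cells, against 318, 90.5 and 135 CPM in control shRNA cells. Replicate 1 of the control shRNA cells lay among the ACSS2 shRNA libraries, while control replicates 2 and 3 were far lower. By replicate number the log2 differences were 0.22, 1.62 and 1.28, and with the block the log2 fold change was 1.04 ± 0.21, or 2.06-fold (edgeR adjusted p = 0.00337). Without the block it was 0.85 (adjusted p = 0.409) by edgeR, and DESeq2 with the block gave 1.02 (adjusted p = 0.0676). MLXIPL, the carbohydrate-responsive counterpart of SREBP-1, had 2, 16 and 11 counts in ACSS2 shRNA cells, against 4, 12 and 13 in control shRNA cells. Its log2 fold change with the block was -0.01 ± 0.44 (edgeR adjusted p = 0.993), a value set by few counts.

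In the desaturase class, FADS1 rose, and the abundant SCD and FADS2 did not pass. SCD had 1293, 1333 and 2030 CPM in ACSS2 shRNA cells, against 1572, 580.3 and 1065 CPM in control shRNA cells. FADS2 had 738, 682.5 and 680.4 CPM in ACSS2 shRNA cells, against 1075, 373 and 458 CPM in control shRNA cells. FADS1, which acts after FADS2 in making arachidonate and its relatives, had 314.5, 292 and 277 CPM in ACSS2 shRNA cells, against 321, 175 and 176 CPM in control shRNA cells. In all 3, control replicate 1 was the highest control library, and the ACSS2 shRNA library was lower in number 1 and higher in numbers 2 and 3. FADS1 rose with the block by 0.45 ± 0.15 on the log2 scale (edgeR adjusted p = 0.0401), a call lost without number 2 (0.28, adjusted p = 0.401) and without number 3 (0.35, adjusted p = 0.142). SCD stood at 0.62 ± 0.23 (edgeR adjusted p = 0.0594) and FADS2 at 0.30 ± 0.21 (edgeR adjusted p = 0.315).

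The values of these genes turned on replicate number 1. In edgeR with the block on numbers 2 and 3, FASN (0.70, adjusted p = 0.00248), SCD (1.06, 0.000272) and FADS2 (0.71, 0.00217) came to be called, and SREBF1 (1.44, 3.36e-05) and FADS1 (0.69, 0.00145) stayed called. That fit called 21.1% of all genes. It leaves out the number in which FASN, SCD and FADS2 went the other way, so these calls describe numbers 2 and 3 and are no independent support. Without number 2 the log2 fold change was -0.10 for FASN, 0.29 for SCD, -0.02 for FADS2 and 0.71 for SREBF1, of which SREBF1 was called (edgeR adjusted p = 0.0207). Without number 3 it was 0.003 for FASN, 0.46 for SCD, 0.16 for FADS2 and 0.92 for SREBF1, and again SREBF1 was called (edgeR adjusted p = 0.00031). Number 1 was also the one in which ACSS2 was lowest, with 11.1 CPM in ACSS2 shRNA cells, and its part in these differences was not tested. SCD5, the second stearoyl-CoA desaturase, was 0.34 ± 0.15 with the block (edgeR adjusted p = 0.116), with all ACSS2 shRNA libraries above the controls. FADS3, which desaturates sphingoid bases, was -0.04 ± 0.11 (edgeR adjusted p = 0.795), and its level went with the replicate number (edgeR adjusted p = 0.000188 for that term). The replicate number was called for 9 of the 38 members, which are SREBF1, MLXIPL, FADS1, FADS2, FADS3, ACSL5, DGAT2, PLIN2 and PLIN3, and for 38.7% of all genes tested.

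**Figure D2:**
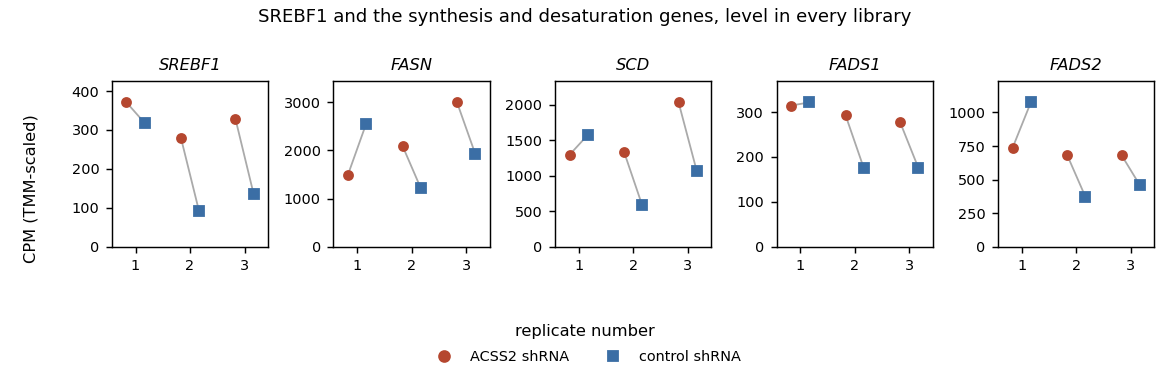
CPM (y axis, from 0) of lipogenic members in each library by replicate number (x axis), with ACSS2 shRNA as circles to the left of control shRNA as squares. In SREBF1, FASN, SCD, FADS1 and FADS2 the control library of number 1 is the highest control.

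All 3 long-chain acyl-CoA synthetases of the set, which activate free fatty acids, passed with the block, in both directions, where 25.1% of all genes passed. ACSL3, found on the endoplasmic reticulum and nascent droplets, had 120.1, 128 and 106 CPM in ACSS2 shRNA cells, against 96.3, 88.7 and 69.2 CPM in control shRNA cells. ACSL5, an endoplasmic reticulum and mitochondrial enzyme, had 67.0, 56.1 and 57.7 CPM in ACSS2 shRNA cells, against 113, 76.6 and 74.7 CPM in control shRNA cells. ACSL1, the isoform best known from adipocytes, heart and liver, had 19.5, 25.6 and 33.1 CPM in ACSS2 shRNA cells, against 33.8, 41.0 and 36.4 CPM in control shRNA cells. In none of them did the groups overlap (20.3% of all genes), with ACSS2 shRNA above for ACSL3 and below for ACSL5 and ACSL1. ACSL3 rose by 0.49 ± 0.11 on the log2 scale (edgeR adjusted p = 0.00777). ACSL5 fell by 0.53 ± 0.12 (edgeR adjusted p = 0.00646) and ACSL1 by 0.53 ± 0.14 (edgeR adjusted p = 0.0171). Their summed level overlapped between the groups, at 207, 210.0 and 196.5 CPM in ACSS2 shRNA cells, against 243, 206 and 180.4 CPM in control shRNA cells. ACSL1 was not called without number 1 (-0.41, adjusted p = 0.0593) or number 2 (-0.50, 0.0762), nor ACSL3 without number 2 (0.43, 0.0996), with folds close to the full ones.

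Glycerolipid assembly held the gene with the smallest p of the set. LPIN1 encodes lipin-1, which removes the phosphate of phosphatidate to give diacylglycerol. LPIN1 had 175, 233 and 168 CPM in ACSS2 shRNA cells, against 115, 117 and 98.55 CPM in control shRNA cells. Every ACSS2 shRNA library lay above every control. With the block the log2 fold change was 0.79 ± 0.12, or 1.73-fold (edgeR adjusted p = 0.000655), and without it 0.80 (adjusted p = 0.118) by edgeR. In the authors' deposited table LPIN1 was the only member with a q-value under 0.05, at 0.0155 and a log2 fold change of 0.78, where 2.51% of genes with a q-value were under it. LPIN2 stood at 0.26 ± 0.11 (edgeR adjusted p = 0.0991) and LPIN3 at 0.53 ± 0.22 (edgeR adjusted p = 0.096).

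DGAT2 and DGAT1 are unrelated enzymes that both complete triacylglycerol from diacylglycerol. DGAT2 had 14.4, 19.8 and 23.4 CPM in ACSS2 shRNA cells, against 9.225, 12.1 and 14.8 CPM in control shRNA cells. It was higher in each replicate number, and the groups overlapped, since replicate 1 of the ACSS2 shRNA cells lay just below control replicate 3. DGAT2 rose by 0.67 ± 0.13 with the block, or 1.59-fold (edgeR adjusted p = 0.00362). DGAT1 had 71.9, 67.4 and 80.3 CPM in ACSS2 shRNA cells, against 60.0, 61.35 and 77.9 CPM in control shRNA cells and did not pass, at 0.15 ± 0.11 (edgeR adjusted p = 0.354). AGPAT4, a lysophosphatidate acyltransferase, had 24.6, 36.4 and 32.6 CPM in ACSS2 shRNA cells, against 20.7, 22.35 and 25.8 CPM in control shRNA cells, with a rise of 0.43 ± 0.13 (edgeR adjusted p = 0.0311). Its groups overlapped by 1 library, and the call was lost without number 2 (0.26, adjusted p = 0.389) and without number 3 (0.48, 0.0508).

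The remaining members of the class did not pass. GPAM, the mitochondrial enzyme that adds the first acyl chain to glycerol phosphate, stood at 0.28 ± 0.13 (edgeR adjusted p = 0.146). AGPAT3 was 0.27 ± 0.11 and AGPAT5 0.27 ± 0.12, with adjusted p of 0.0922 and 0.113. In GPAM, AGPAT3, AGPAT5 and LPIN2, all ACSS2 shRNA libraries were above all controls. AGPAT2, the isoform whose loss causes lipodystrophy in humans, was -0.20 ± 0.11 (edgeR adjusted p = 0.210) and AGPAT1 0.19 ± 0.13 (edgeR adjusted p = 0.300). Over the 11 genes, 8 were higher in every replicate number (30.6% of all genes), 1 was lower in every number (27.3%), and 3 rose past the threshold (12.7%). Their summed level was 823, 834 and 812.5 CPM in ACSS2 shRNA cells, against 706, 608 and 706 CPM in control shRNA cells, without overlap. This separation of the sums depends on LPIN1. When LPIN1 is left out, replicate 2 of the ACSS2 shRNA cells lies below control replicate 3, and the groups overlap.

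**Figure D3:**
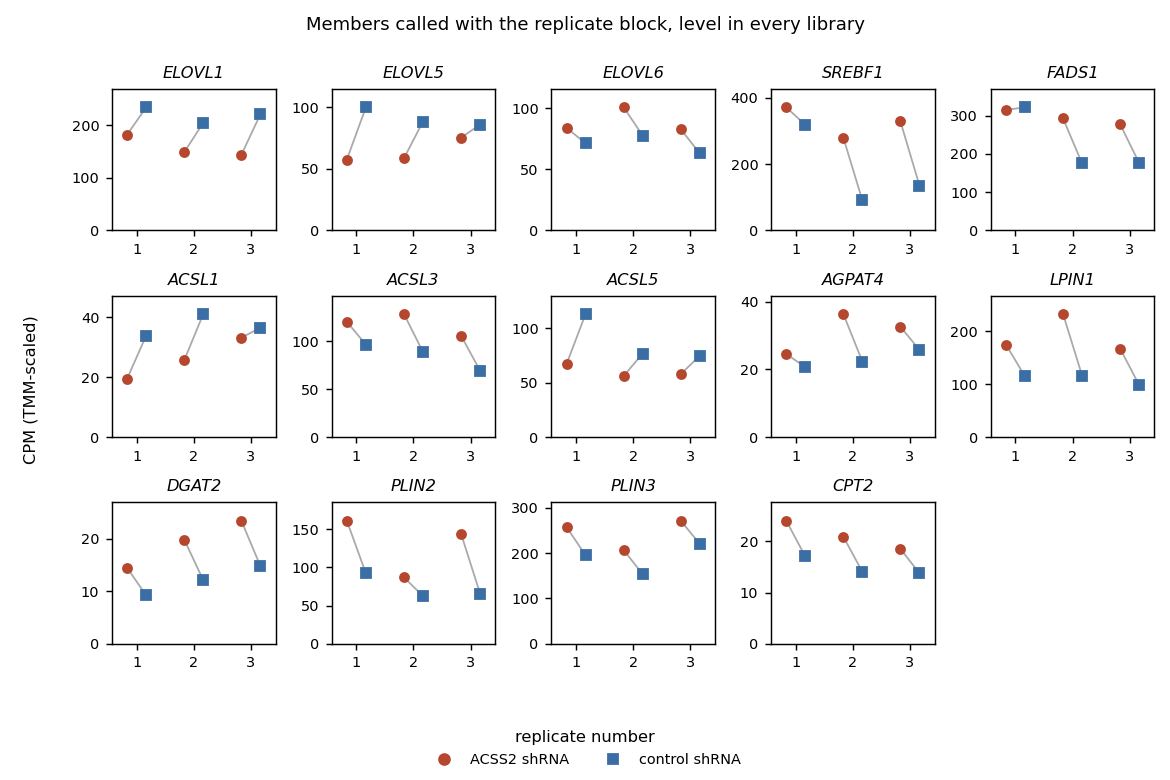
CPM (y axis, from 0) of the 14 members called with the replicate block, in each library by replicate number (x axis), with ACSS2 shRNA as circles to the left of control shRNA as squares. ELOVL1, ELOVL5, ACSL1 and ACSL5 are lower in ACSS2 shRNA cells in each number, and 9 of the other 10 are higher in each, FADS1 being the exception.

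Both droplet coat proteins of the set rose. PLIN2, the coat protein that is stable only on droplets, had 161, 86.9 and 144 CPM in ACSS2 shRNA cells, against 92.1, 62.5 and 65.8 CPM in control shRNA cells. PLIN3, which binds nascent droplets from the cytosol, had 257, 206.5 and 271 CPM in ACSS2 shRNA cells, against 195, 153 and 220.0 CPM in control shRNA cells. Both were higher in ACSS2 shRNA cells in every replicate number, and the groups overlapped in both. PLIN2 rose by 0.81 ± 0.13 on the log2 scale, or 1.75-fold (edgeR adjusted p = 0.00105), and PLIN3 by 0.38 ± 0.11 (edgeR adjusted p = 0.0264). PLIN3 was not called without number 2 (0.32, adjusted p = 0.284) or number 3 (0.41, 0.0562), at a similar fold. The lipases of the set did not pass. PNPLA2, the adipose triglyceride lipase that starts triacylglycerol breakdown, had 184, 186 and 224 CPM in ACSS2 shRNA cells, against 238, 157 and 213 CPM in control shRNA cells, a log2 fold change of -0.02 ± 0.13 (edgeR adjusted p = 0.936). LIPE, hormone-sensitive lipase, stood at -0.03 ± 0.19 (edgeR adjusted p = 0.926).

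Among the oxidation genes, CPT2 rose and its partner CPT1A did not. CPT2, the inner-membrane carnitine palmitoyltransferase, had 24.0, 20.9 and 18.5 CPM in ACSS2 shRNA cells, against 17.03, 14.0 and 13.8 CPM in control shRNA cells. The groups did not overlap, and the log2 fold change was 0.50 ± 0.13 (edgeR adjusted p = 0.0152), which was 0.43 without number 2 (adjusted p = 0.147). CPT1A, the outer-membrane enzyme that limits entry of long chains, had 65.4, 42.4 and 47.0 CPM in ACSS2 shRNA cells, against 49.9, 54.0 and 48.3 CPM in control shRNA cells, and its log2 fold change was 0.00 ± 0.14 (edgeR adjusted p = 0.990). The acyl-CoA dehydrogenases ACADM and ACADVL stood at 0.21 ± 0.12 and 0.08 ± 0.12, with edgeR adjusted p of 0.213 and 0.650. HADHA and HADHB form the complex that carries out the later steps for long chains, and lie head to head on chromosome 2, where their RefSeq start windows share 194 bases. HADHA stood at -0.07 ± 0.12 (edgeR adjusted p = 0.689) and HADHB at 0.11 ± 0.11 (edgeR adjusted p = 0.467). The class summed to 744, 746 and 814 CPM in ACSS2 shRNA cells, against 729, 746 and 755 CPM in control shRNA cells, with overlap.

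**Figure D4:**
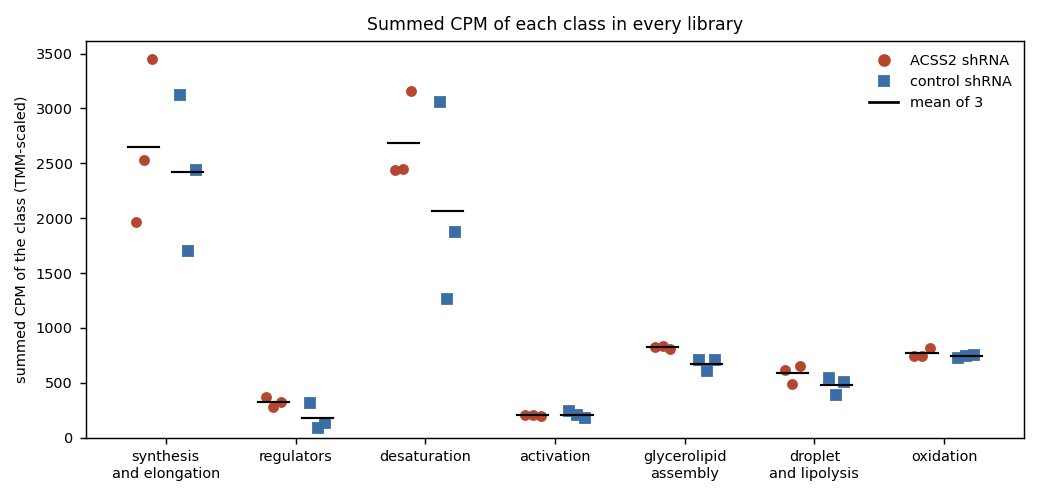
Summed TMM-scaled CPM of each class (y axis, from 0) in every library, with ACSS2 shRNA to the left of control shRNA and a bar at the mean of 3. In glycerolipid assembly the ACSS2 shRNA libraries, from 812.5 to 834 CPM, lie above all controls, and on this scale the groups overlap in the other classes. The separation in glycerolipid assembly is lost when LPIN1 is left out of the sum. In summed TPM, not shown, other classes also did not overlap. Droplet and lipolysis had 449.8 to 563.4 TPM in ACSS2 shRNA cells, against 333.1 to 434.8 TPM in control shRNA cells. Oxidation had 547.1 to 570.1 TPM, against 469.0 to 529.5 TPM.

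Across the fits with the block, ELOVL5, ACSL5, LPIN1, DGAT2 and PLIN2 were called in every one, which are edgeR, DESeq2, limma and edgeR without each replicate number. DESeq2 with the block called 19.8% of all genes and 11 members, not ELOVL6 (adjusted p = 0.0854), AGPAT4 (0.0772) or SREBF1. In the same design limma did not call ACSL1 (adjusted p = 0.065). Of the 38 members, 16 were called without number 1 (21.1% of all genes), 6 without number 2 (12.2% of all genes) and 10 without number 3 (23.8% of all genes). On the TPM scale with limma and the block, 14 members were called, 11 higher and 3 lower, against 25.9% of all genes. There the median of all genes lay at 0.11 on the log2(TPM + 1) scale, and 68.2% of all calls were higher, against 50.7% by edgeR. FADS3, PNPLA2, LIPE and HADHA, all just below 0 by edgeR, were just above 0 on that scale. Some exons are shared with neighbours, and since the labels do not say whether strand was used in counting, such reads cannot be told apart. AGPAT1 shares 29.9% of its exonic bases with PPT2-EGFL8 on the opposite strand. PLIN3 shares 17.8%, LPIN3 13.5%, PNPLA2 10.4% and SREBF1 6.92% with other genes on the opposite strand. DGAT1 shares 10.7% with a gene on the same strand, where counting by strand would not separate the reads either. CPT2 shares 1151 of 10452 exonic bases with an antisense RNA, and FADS1 and FADS2 share 490 bases.

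Beside the members, 121 other genes of the same pathways were examined, of which 119 were matched and 108 tested. With the block, 19 were called (17.6%), 11 higher and 8 lower, against 25.1% of all genes tested. Without it none was called by edgeR, and 9 of the 108 had an unadjusted p under 0.05, against 1820 of the 13003 genes tested. Their median log2 fold change was 0.02. The genes named below are those with the smallest p in each class, except where stated.

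In synthesis, ACLY, which makes cytosolic acetyl-CoA from citrate, fell by 0.55 on the log2 scale (edgeR adjusted p = 0.0346), and the elongation-cycle dehydratase HACD1 by 0.46 (0.0317). SREBF2, the sterol-synthesis counterpart of SREBF1, fell by 0.86 ± 0.16 (edgeR adjusted p = 0.00203). It had 136, 187.5 and 292 CPM in ACSS2 shRNA cells, against 358, 298 and 422 CPM in control shRNA cells, with every ACSS2 shRNA library below, so that the SREBF genes went in opposite directions. PPARG, the adipogenic nuclear receptor, fell by 0.68 (edgeR adjusted p = 0.0012). INSIG1, which retains the SREBP escort in the endoplasmic reticulum, rose by 0.67 (edgeR adjusted p = 0.00325). PPARA, which drives oxidation genes, rose by 0.71 (edgeR adjusted p = 0.00525). INSIG1 and PPARA fall outside the rule of the smallest p and were chosen after their values were seen. Of the same regulators, MBTPS1 rose by 0.33 (edgeR adjusted p = 0.0479). SCAP, INSIG2 and MBTPS2 did not pass (edgeR adjusted p of 0.751, 0.112 and 0.25).

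In uptake and activation, the transporter SLC27A1 rose by 0.65 (edgeR adjusted p = 0.00441), and ACSL4, which activates arachidonate, by 0.37 (0.0289). In glycerolipid assembly, GPAT4 of the endoplasmic reticulum rose by 0.39 (0.0198), and SELENOI, which makes phosphatidylethanolamine, fell by 0.46 (0.0163). MGLL, the monoacylglycerol lipase, fell by 0.50 (edgeR adjusted p = 0.0085), and the droplet biogenesis gene FITM2 did not pass, at -0.30 (0.097). HADH, the dehydrogenase for short and medium chains, had 18.9, 19.3 and 18.1 CPM in ACSS2 shRNA cells, against 47.6, 35.6 and 28.8 CPM in control shRNA cells. It fell by 0.97 (edgeR adjusted p = 0.000661), and CPT1B, the muscle-type counterpart of CPT1A, rose by 0.61 (0.00674).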

How the data were processed

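RNA of 6 libraries was measured by mRNA sequencing at BGI on a DNBSEQ platform, per the labels' protocols. HISAT, Bowtie2 and RSEM are named in the submitters' processing notes, without roles or versions, and which annotation was used is not given in the sources. The deposited table holds expected counts and TPM from the authors, beside FPKM columns that were not used. It also holds the authors' own comparison with log2 fold changes, p-values and q-values (NA in 860 genes). Stray annotation text (565 lines) was left out, and 26 symbols were restored from gene IDs.

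Expected counts, of which between 10.47% and 13.01% per library were not whole, were rounded. Genes passing filterByExpr (minimum count 10, minimum total 15) were tested in R 4.3.3 by edgeR (version 4.0.16, quasi-likelihood F test, TMM scaling) on all 6 libraries. A p-value was adjusted by Benjamini-Hochberg over 13003 genes and called under 0.05. Standard errors are the absolute log2 fold change over the square root of F. Differences within a replicate number use log2(CPM + 0.25). The fit was repeated with the replicate number as a block. Same-numbered libraries carry the same batch tag in the labels, and their deviations from the group means correlated across genes at 0.716, 0.494 and 0.74. P-values measure the spread between these libraries. The method was tested on simulated counts in which same-numbered libraries shared a factor, so that test cannot show whether the pairing holds here. Alternatives used DESeq2 1.42.0, limma 3.58.1 on log2(TPM + 1) and log2(TPM + 0.1), RLE scaling, no filter, and each library or replicate number left out. Exon overlaps come from GENCODE release 29, promoter windows from RefSeq on GRCh38.p14.

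The members and the other lists were chosen with earlier results of these data known. Always described are ACACA, FASN, SCD, SREBF1, MLXIPL, DGAT1, DGAT2, PNPLA2, CPT1A and ACSS2, with each member called in either fit, and from the other pathway genes the 2 of each class with the smallest p with the block.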

Additional observations from a re-analysis of the deposited data

How the results depend on the processing

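The replicate block decided most calls. Genes called by edgeR numbered 9 without it and 3266 with it, 39 with no low-count filter, 518 by DESeq2, 2576 by DESeq2 with the block and 3373 by limma with the block, and with a library or replicate number left out between 0 and 6 without the block and between 1589 and 3115 with it (2765 without number 1). Members called numbered 0 without the block, 14 with it, 1 by DESeq2, 11 by DESeq2 with the block, 14 by limma with the block, and in the leave-outs 0 without the block and between 6 and 16 with it, 10 of them without number 3. ACSS2 stood at -1.05 without and -1.31 with the block, -1.22 by limma with the block, and in the leave-outs between -1.753 and -0.561 without and between -1.80 and -0.703 with the block (-1.572 without number 3). No member changed direction while called, and the sign changed for 6 members near 0 in other settings. MLXIPL was -0.007 with the block, -0.154 by DESeq2 with the block and -0.031 on log2(TPM + 0.1). CPT1A was -0.001 with no filter and -0.021 by DESeq2 with the block. On log2(TPM + 1), with or without the block, FADS3 was 0.054, PNPLA2 0.085, LIPE 0.074 and HADHA 0.036, and on log2(TPM + 0.1) they were 0.055, 0.086, 0.085 and 0.036. Leaving out libraries without the block moved ACACA between -0.066 and 0.27, FASN between -0.084 and 0.682, MLXIPL between -0.582 and 0.523, FADS2 between -0.163 and 0.754, FADS3 between -0.328 and 0.235, AGPAT1 between -0.03 and 0.286, PNPLA2 between -0.219 and 0.139, LIPE between -0.267 and 0.26, CPT1A between -0.201 and 0.159, ACADVL between -0.019 and 0.22, and HADHA between -0.15 and 0.004. With the block FASN lay between -0.102 and 0.699, MLXIPL between -0.492 and 0.176, FADS2 between -0.021 and 0.713, AGPAT1 between -0.002 and 0.31, PNPLA2 between -0.185 and 0.15, LIPE between -0.249 and 0.264, and CPT1A between -0.201 and 0.143. The cause was not tested. With 3 libraries a group and a biological coefficient of variation of 26.6% without and 11.8% with the block, small differences were not detectable, and MLXIPL, LPIN3 and ACACB rest on low levels.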

Other observations

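Ratios of TPM within a library show how the mix of related enzymes differed, as values with no test. DGAT1 over DGAT2 was 5.82, 3.95 and 3.96 in ACSS2 shRNA cells, against 7.61, 6.17 and 6.23 in control shRNA cells, lower in each replicate number and without overlap. ACACA over ACACB was 15.8, 12.7 and 20.2 in ACSS2 shRNA cells, against 11.2, 9.31 and 13.5 in control shRNA cells, higher in each number with overlap. HADHA over HADHB, the subunits of 1 complex, was 2.39, 2.15 and 2.37 in ACSS2 shRNA cells, against 2.89, 2.60 and 2.41 in control shRNA cells. SCD over SCD5 was 34.1, 29.2 and 55.4 in ACSS2 shRNA cells, against 45.2, 21.1 and 31.9 in control shRNA cells, and FADS2 over FADS1 was 3.28, 3.29 and 3.44 in ACSS2 shRNA cells, against 4.68, 2.99 and 3.68 in control shRNA cells. The ACSS2 shRNA library was lower in number 1 for SCD over SCD5 and in numbers 1 and 3 for FADS2 over FADS1.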
